A study of Mus musculus with 12 samples.

Results

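Neat1, Malat1, Gas5, Pvt1, Snhg1, Snhg12, Miat and Trp53cor1 are 8 mouse long noncoding RNA (lncRNA) genes tied to growth and stress. They were taken by symbol from the deposited gene tables, which hold all 8 among 25078 genes, and 7 of the 8 passed the filter on low counts. Miat, with 50 reads in 12 libraries, did not.

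The libraries came from sorted LSK cells, the lineage-negative, Sca1-positive, c-Kit-positive bone marrow fraction in which mouse hematopoietic stem cells and multipotent progenitors lie. The groups were CM IR, CM NIR, WT IR and WT NIR, with 3 libraries in each. CM cells came from Cbfb-MYH11 mice at the preleukemic stage and WT cells from wild-type mice; IR cells received 3.5 Gy and were harvested 24 h later, and NIR cells were incubated in parallel with no dose. Each of the 6 animals gave 1 IR and 1 NIR library, so n counts animals. Cbfb-MYH11 models the gene fusion made by inv(16) in acute myeloid leukemia. The sources used here do not give the promoter or Cre line behind the allele, nor the age and sex of the mice. The library names mark WT animals 1 and 3 as C, WT animal 2 as WT and every CM animal as CHW. What C and CHW stand for is not stated.

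Trp53cor1, also called lincRNA-p21, is transcribed next to Cdkn1a and is a known target of p53, the transcription factor that responds to DNA damage. Pvt1 lies beside the growth regulator Myc and holds p53 binding sites. Neat1 is the RNA scaffold of paraspeckles and Malat1 is an abundant RNA of nuclear speckles. Gas5, Snhg1 and Snhg12 are host genes: their introns carry small nucleolar RNAs (snoRNAs), which guide the modification of ribosomal RNA, while the spliced exons are translated little and are degraded by nonsense-mediated decay. Miat is a nuclear lncRNA best known from nerve and heart.

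Total gene counts ran from 68.5 to 110.8 M per library, and the 8 genes took 0.12% to 0.193% of them. All 10 LSK and stem cell markers, Kit, Ly6a and Cd34 among them, were detected in every library. A principal component analysis of log2 CPM, the counts of a gene scaled to the library total with TMM factors, had a leading component with 51.5% of the variance, which put CM animal 1 (-78.8 IR, -75 NIR) and the non-irradiated library of CM animal 3 (-75.9) far from the IR library of CM animal 3 (-8.92), from CM animal 2 (19.3 IR, 23 NIR) and from the WT libraries (26.4 to 43.9 IR, -1.36 to 45.1 NIR). The IR and NIR libraries of CM animal 3 deviated from their group means together with r = 0.125 across genes, against 0.412 to 0.844 in the other animals, so values of Trp53cor1, Pvt1, Neat1 and Malat1 that move by over 1.5 times on leaving out this animal are also given without it.

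Ordered by RPKM, counts scaled to exon length and library size, the 8 genes fell in the order given here. This scale divides by the full exon length of a row, so it would understate a gene whose RNA covers only part of that length. Gas5 was highest at 330.6 ± 42.9 RPKM (mean ± SD over 12 libraries). Snhg1 followed at 165.8 ± 18.6 and Malat1 at 117 ± 37.6 RPKM. Snhg1 exceeded Malat1 in 10 of 12 libraries, and the ranges of this pair overlapped (135.7 to 195 and 62.97 to 175.1 RPKM). Snhg12 averaged 38.5 ± 6.51 and Neat1 16.0 ± 7.66 RPKM, and Snhg12 was the higher in 12 of 12 libraries. That order rests on exon lengths of 606 bases for Snhg12 and 20771 bases for Neat1. In CPM, which is not scaled to length, Neat1 averaged 337.9 and Snhg12 23.7. Pvt1 at 2.49 ± 1.05 and Trp53cor1 at 1.65 ± 1.05 RPKM had overlapping ranges, although Pvt1 was the higher in each library. Miat averaged 0.00571 ± 0.00401 RPKM. The snoRNA host genes were the steadiest, with a highest library 1.44 (Snhg1), 1.52 (Gas5) and 1.67 (Snhg12) times the lowest. The same ratio was 2.78 for Malat1, 3.57 for Neat1, 3.84 for Pvt1 and 8.32 for Trp53cor1.

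**Figure D1:**
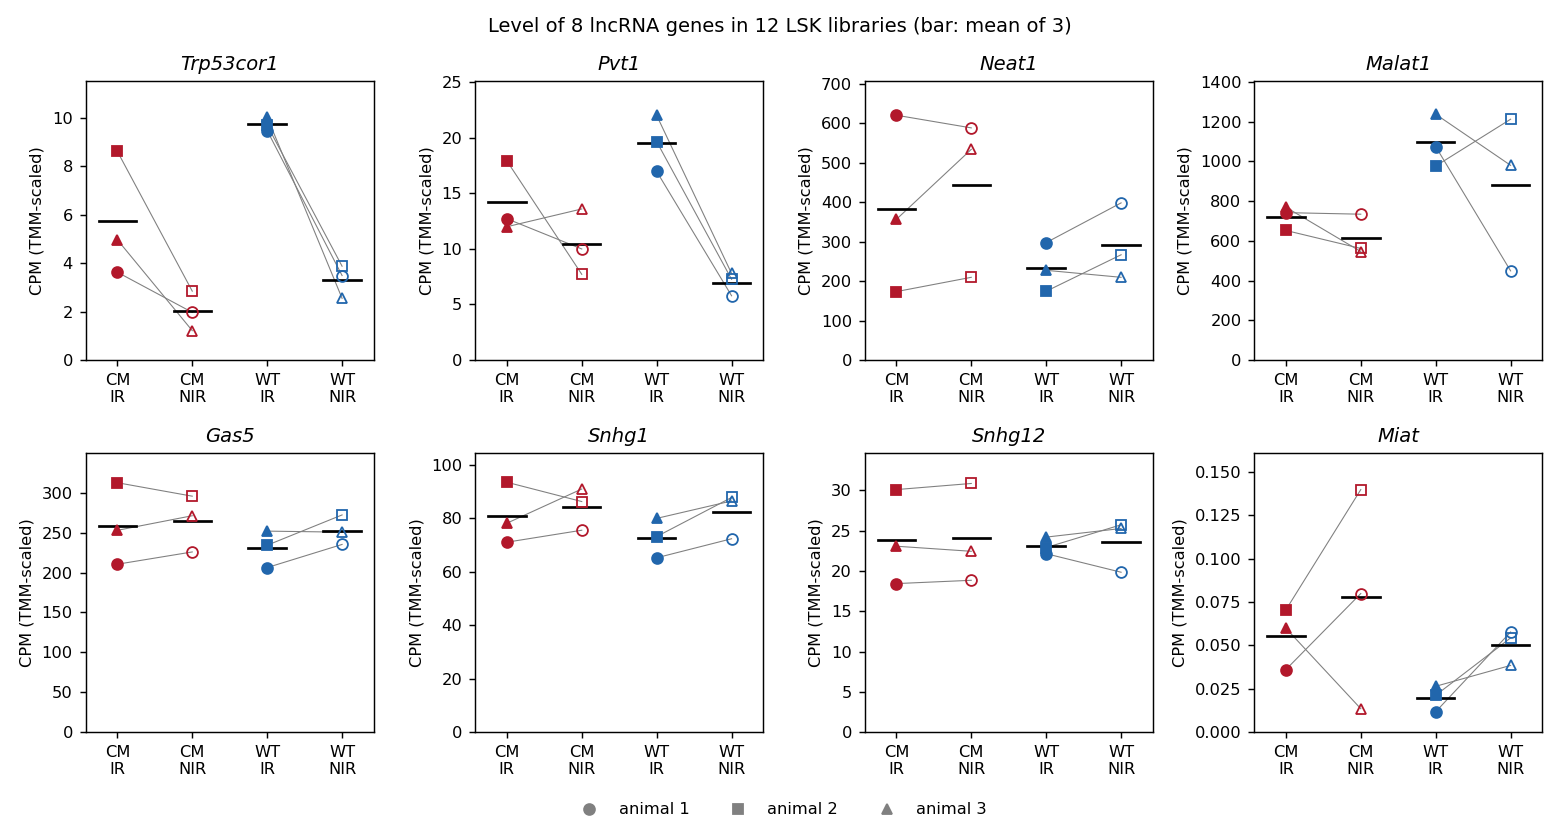
Level of each lncRNA gene in CPM (y axes starting at 0) in the 12 libraries, by group; a line joins the IR and NIR library of 1 animal and the bar is the mean of 3. Trp53cor1 lies at 9.47 to 10.03 CPM in WT IR against 2.55 to 3.88 CPM in WT NIR, Pvt1 separates in the same way in WT, and the Gas5, Snhg1 and Snhg12 groups overlap.

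Trp53cor1 rose 2.90-fold after irradiation over both genotypes, and its level was higher in the IR than in the NIR library of each of the 6 animals. It lies at chr17:29057474-29079126 (mm10, minus strand), with Srsf3 14102 bp below it and Cdkn1a 11853 bp above it, both on the plus strand. In WT it had 9.47, 9.69 and 10.03 CPM in IR libraries of animals 1, 2 and 3, against 3.49, 3.88 and 2.55 CPM in their NIR libraries. In CM it had 3.63, 8.62 and 4.97 CPM in IR libraries, against 1.97, 2.84 and 1.21 CPM in NIR libraries. Irradiated libraries all exceeded non-irradiated ones within each genotype, which in CM held for 1.57% of all tested genes; between genotypes the lowest CM IR library lay below the highest WT NIR library.

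The log2 fold change of Trp53cor1, IR over NIR over both genotypes, was 1.54 ± 0.25 (SE) with an adjusted p of 0.0448 by edgeR's quasi-likelihood test with Benjamini-Hochberg adjustment, and 0.0115 with the animal as a block. Together with Pvt1 it made 2 of 7 tested lncRNA genes past the threshold of 0.05 in this comparison, where 0.308% of all 14599 tested genes passed; with the block both passed as well, beside 2.07%. The log2 response within an animal was above 0 in 6 of 6 animals, which held for 5.93% of tested genes. It was 0.87, 1.59 and 2.01 in CM animals 1, 2 and 3 and 1.44, 1.32 and 1.97 in WT animals 1, 2 and 3. The call over both genotypes was near the threshold: when libraries were left out singly it held when either the CM NIR library of animal 2 or the CM IR library of animal 1 was missing, and was lost without any of the other 10 (adjusted p 0.0222 to 0.172 over the 12 fits). Without both libraries of CM animal 3 the log2 fold change was 1.46 with an adjusted p of 0.132, and 1.42 with 0.00946 when the animal was also a block.

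Within genotypes the estimates for Trp53cor1 were alike. In CM the log2 fold change was 1.51 ± 0.36 with an edgeR adjusted p of 1 (unadjusted 0.00169), and 0 of 7 lncRNA genes passed, as did 0.00685% of all tested genes. In WT it was 1.56 ± 0.36 with an edgeR adjusted p of 0.216, and 0.0351 with the animal as a block. For WT, 0 of 7 lncRNA genes passed without the block, where 0.116% of tested genes passed, and 2 of 7 passed with it, where 1.12% did. The IR response in CM minus that in WT was -0.05 ± 0.50 in the fit without an animal term. Its 95% interval of -1.16 to 1.06 on the log2 scale held a sizeable difference in either direction. With the animal as a block the difference was -0.08 ± 0.33. Without both libraries of CM animal 3 it was -0.20 ± 0.51, and -0.30 ± 0.29 when the animal was also a block. Trp53cor1 levels were lower in CM than in WT after irradiation without overlap of libraries (means 5.74 ± 2.58 and 9.73 ± 0.28 CPM, SD, n = 3 each), but the log2 fold change of -0.76 ± 0.35 did not pass (edgeR adjusted p = 0.440). Libraries of CM IR lay all below those of WT IR in 8.36% of tested genes. Without irradiation CM and WT averaged 2.01 ± 0.82 and 3.30 ± 0.68 CPM, and their libraries overlapped (log2 fold change -0.72 ± 0.36, edgeR adjusted p = 0.386, and -0.46 ± 0.36 without CM animal 3).

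Cdkn1a, the p53 target gene that encodes the cell cycle inhibitor p21, is the nearest tested neighbour above Trp53cor1. Cdkn1a had 446.8, 370.0 and 362.7 CPM in WT IR libraries, against 242.9, 143.6 and 143.9 CPM in WT NIR libraries. In CM it had 428.5, 379.4 and 303.3 CPM in IR libraries, against 297.4, 160.2 and 280.5 CPM in NIR libraries. Its log2 fold change over both genotypes was 0.87 ± 0.19, with an adjusted p of 0.146 by edgeR's quasi-likelihood test and 0.0379 with the animal as a block. Both genes were higher in the IR library of every animal, but in CM animal 3 the log2 response of Cdkn1a was 0.11 beside 2.01 for Trp53cor1. Srsf3, a splicing factor gene on the other side, had a log2 fold change of -0.13 ± 0.06 (edgeR adjusted p = 1).

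**Figure D2:**
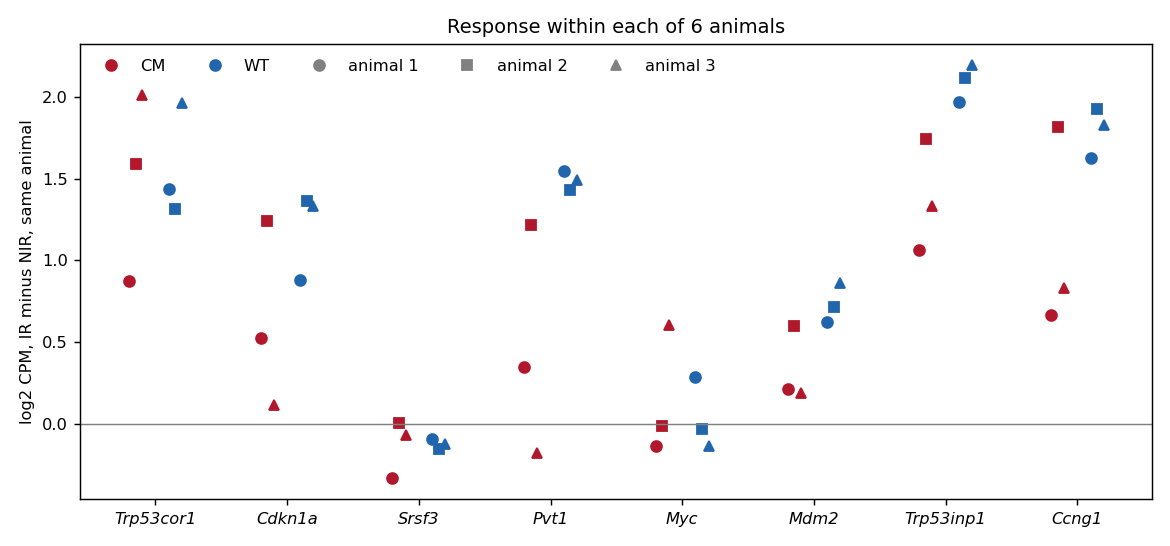
Response within each animal (log2 CPM, IR minus NIR, y axis) of Trp53cor1 and Pvt1, of their neighbours Cdkn1a, Srsf3 and Myc, and of 3 p53 targets; red points are CM and blue points WT animals, and the symbol gives the animal. Pvt1 lies at 1.43 to 1.55 in WT and at -0.18 to 1.21 in CM, and Myc scatters around 0.

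Pvt1 also rose over both genotypes, with WT animals responding more evenly than CM animals. Its span, chr15:62037986-62260212 (mm10, plus strand), starts 47625 bp above the end of Myc. WT animals had 16.96, 19.6 and 22 CPM in IR libraries of animals 1, 2 and 3, against 5.78, 7.26 and 7.79 CPM in NIR libraries. In CM it had 12.7, 17.9 and 11.99 CPM in IR libraries, against 9.99, 7.71 and 13.6 CPM in NIR libraries. The WT groups were far apart, while in CM the NIR library of animal 3 exceeded the IR libraries of animals 1 and 3.

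Over both genotypes the log2 fold change of Pvt1 was 0.97 ± 0.16, with an adjusted p of 0.0463 by edgeR's quasi-likelihood test and 0.0424 with the animal as a block. The call was lost in 11 of 12 fits that left out 1 library and held when the CM NIR library of animal 3 was missing (adjusted p 0.0372 to 0.169). Without both libraries of CM animal 3 the log2 fold change was 1.15 with an adjusted p of 0.0702, and 1.14 with 0.0108 when the animal was also a block. In WT the log2 fold change was 1.49 ± 0.24 with an edgeR adjusted p of 0.0527, and 0.0439 with the block. WT IR libraries all exceeded WT NIR libraries, as they did for Trp53cor1 and for 7.47% of all tested genes. In CM the log2 fold change was 0.45 ± 0.23 (edgeR adjusted p = 1, and 0.778 with the block). Without both libraries of CM animal 3, whose Pvt1 level alone was lower after irradiation, the value in CM was 0.80 ± 0.24 (edgeR adjusted p = 1), and 0.79 ± 0.19 with the block.

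Pvt1 had the smallest unadjusted p among the 7 genes for the difference between the genotypes' responses. The CM minus WT difference was -1.05 ± 0.33, with a 95% interval of -1.77 to -0.32 on the log2 scale and an unadjusted p of 0.00901, but after Benjamini-Hochberg adjustment the edgeR p was 1. Without both libraries of CM animal 3 the difference was -0.69 ± 0.31, and -0.70 ± 0.24 with the block, over 1.5 times smaller without the block. In that test 0 of 7 lncRNA genes and 0% of all tested genes passed, DESeq2 called 0 of the 7 as well, and 106 of 14599 genes, or 0.726%, had an unadjusted edgeR p under 0.05. The within-animal log2 response was 0.35, 1.21 and -0.18 in CM animals 1, 2 and 3 and 1.55, 1.43 and 1.49 in WT animals 1, 2 and 3 (means 0.46 ± 0.70 in CM and 1.49 ± 0.06 in WT, SD, n = 3 each). Among the CM animals, animal 2 was the closest to WT. Without irradiation Pvt1 averaged 10.4 ± 2.96 CPM in CM and 6.94 ± 1.04 CPM in WT (log2 fold change 0.59 ± 0.23, edgeR adjusted p = 0.264, and 0.35 ± 0.22 without CM animal 3), and after irradiation 14.2 ± 3.23 CPM in CM and 19.5 ± 2.52 CPM in WT (log2 fold change -0.46 ± 0.23, edgeR adjusted p = 0.486). Neither genotype comparison passed, and the sign of the estimate turned between them.

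Myc, the transcription factor gene of growth that neighbours Pvt1, had 236.6, 530.3 and 358.0 CPM in CM IR libraries against 259.7, 534.7 and 235.1 CPM in CM NIR libraries. In WT Myc had 356.4, 419.5 and 402.2 CPM in IR libraries against 292.4, 428.7 and 441.4 CPM in NIR libraries. Its log2 fold change over both genotypes was 0.07 ± 0.24 (edgeR adjusted p = 1), and 2 of 6 animals had the higher Myc level after irradiation, against 5 of 6 for Pvt1. Where the log2 response of Myc was lowest, at -0.13 in both CM animal 1 and WT animal 3, Pvt1 was at 0.35 and 1.49. A histone pseudogene row, H2afy3, lies inside the Pvt1 span on the minus strand with 190 counts in all and a log2 fold change of -0.11 ± 0.27 (edgeR adjusted p = 1).

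The p53 targets chosen for scale gave the size of the response around both genes. Over both genotypes 6 of 10 passed, all upward, and 9 of 10 with the block; the median of the 10 was 1.29, beside -0.00243 for all tested genes. Trp53inp1, which encodes a p53-induced nuclear protein, had a log2 fold change of 1.74 ± 0.09 (edgeR adjusted p = 1.517e-05). Phlda3, an inhibitor of Akt signalling, and the zinc finger gene Zmat3 changed by 3.25 ± 0.39 (edgeR adjusted p = 0.00914) and 3.14 ± 0.34 (edgeR adjusted p = 0.00631). Cyclin G1 (Ccng1) changed by 1.45 ± 0.13 (edgeR adjusted p = 0.00211). In CM 1 of the 10 passed, and 0 with the block, and in WT 5 passed, and 8 with the block. The median of the CM minus WT difference was -0.63 over the 10 genes, with all 10 below 0 and 0 past the threshold; this list was chosen with earlier results of these libraries known, so its direction is no independent evidence. Trp53cor1 was -0.05 and Pvt1 -1.05 on that scale.

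**Figure D3:**
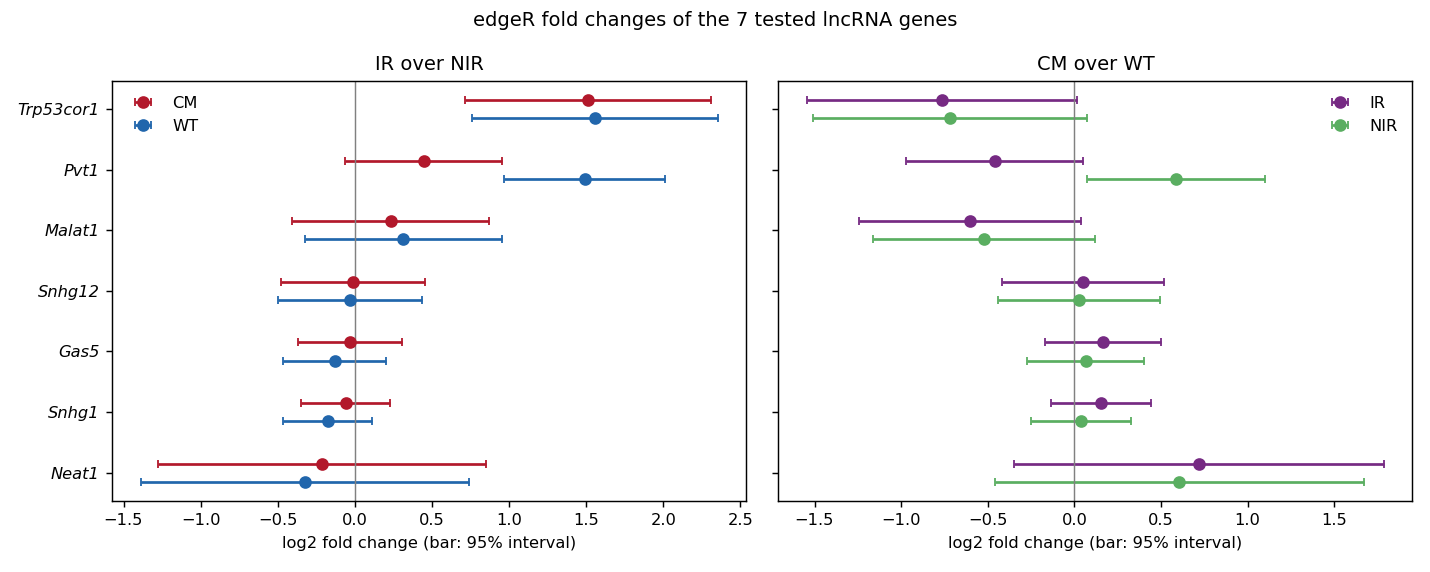
Log2 fold changes of the 7 tested lncRNA genes by edgeR with 95% intervals: IR over NIR in CM and in WT (left), and CM over WT in IR and in NIR libraries (right). After irradiation the intervals of Trp53cor1 lie above 0 in both genotypes and that of Pvt1 in WT; in the genotype panel the Pvt1 interval without irradiation lies above 0, and that gene's adjusted p was 0.264.

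The 3 snoRNA host genes did not pass in any comparison, and their levels were correlated across the libraries. All are short, multi-exon genes in mm10: Gas5 at chr1:161034916-161038539 (plus strand, 751 bases of exon), Snhg1 at chr19:8723487-8726326 (plus strand, 476 bases) and Snhg12 at chr4:132308678-132311024 (plus strand, 606 bases). GENCODE M21 places 9 snoRNA loci inside Gas5, 8 inside Snhg1 and 4 inside Snhg12, of which 1, 1 and 4 have a row of their own in the count table. Box C/D snoRNAs carry the boxes C and D near their ends and guide methylation, and box H/ACA snoRNAs end in ACA and a short tail and guide pseudouridylation. The box C/D sequences below, Snord47 from Gas5 (chr1:161038082-161038158) and Snord99 from Snhg12 (chr4:132310691-132310764), show in capitals a C box TGATGA and a D box CTGA. The H/ACA sequences, Snora16a (chr4:132309465-132309600) and Snora61 (chr4:132310240-132310369) from Snhg12, show the ACA in capitals. All are from the mm10 genome at GENCODE M21 coordinates, plus strand, 5′ to 3′, and are shown because they are products of these hosts with counts of their own and hold these letters near their ends. The 2 other snoRNAs with counts of their own are not shown: Snord22 (Snhg1) has a CTGA but no TGATGA, and in Snora44 (Snhg12) the last ACA is followed by 34 bases in the annotated span.
Snord47: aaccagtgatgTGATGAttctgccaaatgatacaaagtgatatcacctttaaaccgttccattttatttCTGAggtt
Snord99: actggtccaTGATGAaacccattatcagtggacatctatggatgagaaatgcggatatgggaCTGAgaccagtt
Snora16a: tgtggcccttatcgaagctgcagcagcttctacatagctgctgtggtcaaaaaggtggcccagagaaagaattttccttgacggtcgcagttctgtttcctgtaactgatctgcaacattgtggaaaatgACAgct
Snora61: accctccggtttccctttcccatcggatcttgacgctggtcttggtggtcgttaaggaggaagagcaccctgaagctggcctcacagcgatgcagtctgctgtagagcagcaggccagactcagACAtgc
Searched on the transcript strand, TGATGA followed by CTGA occurs in 24% of 1507 annotated snoRNA transcripts, and ACA at that distance from the 3′ end in 18.3%.

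Host genes of this class start with a run of pyrimidines, the terminal oligopyrimidine tract known to tie translation to growth signals. The sequences below run from 60 bases before the RefSeq start site to 40 bases after it (RefSeq on GRCm38.p6), with the longest run of C and T near the start site in capitals. They are Gas5 at chr1:161035106-161035205, Snhg1 at chr19:8723427-8723526 and Snhg12 at chr4:132308618-132308717, all on the plus strand, 5′ to 3′.
Gas5: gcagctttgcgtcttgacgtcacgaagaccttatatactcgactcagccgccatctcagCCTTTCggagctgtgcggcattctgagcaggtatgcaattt
Snhg1: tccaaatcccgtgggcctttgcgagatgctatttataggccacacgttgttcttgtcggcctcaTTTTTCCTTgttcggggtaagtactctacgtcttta
Snhg12: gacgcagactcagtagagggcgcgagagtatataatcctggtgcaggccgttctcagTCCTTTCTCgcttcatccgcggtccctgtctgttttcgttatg
The runs were 6 bases long in Gas5 and 9 in Snhg1 and Snhg12, starting 1 base before the start site in Gas5, 3 bases before it in Snhg12 and 4 bases after it in Snhg1. A second RefSeq start site of Gas5, outside the span of its row in the count table, had a longest run of 3. The trait was not particular to the hosts, since Miat has a run of 7 bases, while the longest run in Malat1 was 4. A run of 6 or more of C or T on the transcript strand, overlapping the stretch from 10 bases before to 20 after the start site, is held by 36.3% of 32851 RefSeq promoters, and one of 9 or more by 11.6%.

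Gas5, first isolated from growth-arrested cells, had 210.5, 312.7 and 253.0 CPM in CM IR libraries against 225.9, 295.8 and 271.3 CPM in CM NIR libraries. In WT it had 206.3, 234.3 and 252.0 CPM in IR libraries against 235.3, 272.3 and 250.7 CPM in NIR libraries. Both pairs of groups overlapped. The log2 fold change over both genotypes was -0.08 ± 0.11 with a 95% interval of -0.32 to 0.16 (edgeR adjusted p = 1).

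Snhg1, whose spliced RNA has been tied to p53 regulation in human cells, had 71.0, 93.5 and 78.1 CPM in CM IR libraries against 75.5, 86.3 and 90.9 CPM in CM NIR libraries. Its WT levels were 65.2, 73.2 and 80.0 CPM in IR libraries against 72.3, 87.8 and 86.5 CPM in NIR libraries. The IR library was the lower in 5 of 6 animals. Its log2 fold change over both genotypes was -0.12 ± 0.09 with a 95% interval of -0.32 to 0.09 (edgeR adjusted p = 1, and 0.288 with the block).

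Snhg12 had 18.4, 30.1 and 23.1 CPM in CM IR libraries against 18.9, 30.9 and 22.5 CPM in CM NIR libraries. Its WT levels were 22.2, 22.9 and 24.2 CPM in IR libraries against 19.9, 25.7 and 25.3 CPM in NIR libraries. CM animal 2 was high and CM animal 1 low in both libraries, so the spread in CM lay between animals. The log2 fold change over both genotypes was -0.02 ± 0.15 with a 95% interval of -0.35 to 0.31 (edgeR adjusted p = 1). Between genotypes the 3 hosts differed by 0.05 to 0.16 on the log2 scale after irradiation and by 0.03 to 0.06 without it, and 0 of 3 passed.

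**Figure D4:**
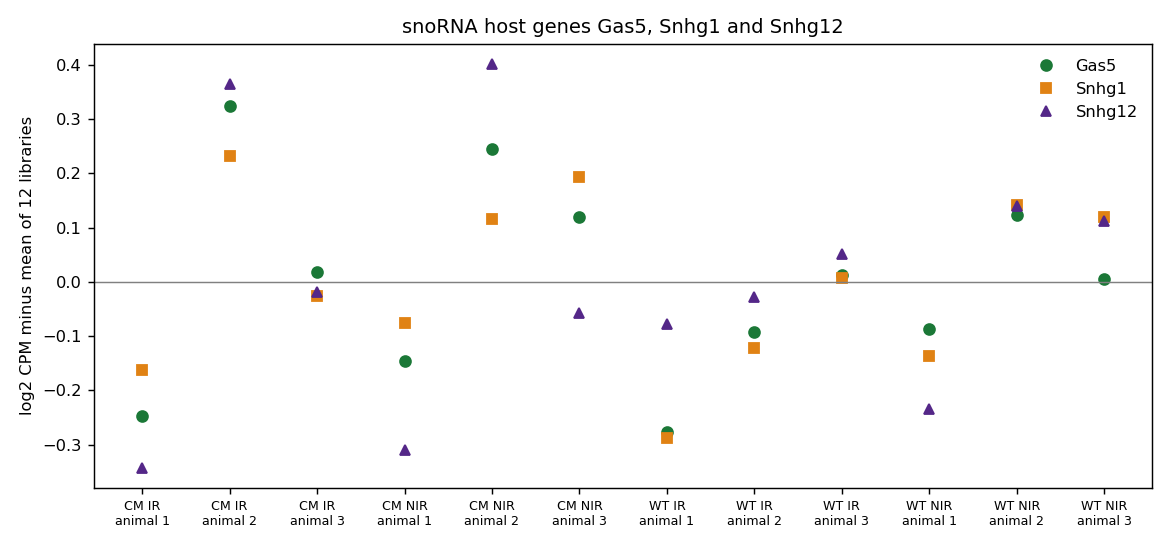
Level of the snoRNA host genes Gas5, Snhg1 and Snhg12 in each library, as log2 CPM minus the gene's mean over 12 libraries (y axis). In CM IR the 3 genes are at -0.16 to -0.34 in animal 1 and at 0.23 to 0.36 in animal 2, and in WT IR animal 1 Gas5 and Snhg1 are at -0.28 and -0.29 but Snhg12 at -0.08. In CM NIR animal 3 Snhg12 is at -0.06, below Gas5 at 0.12 and Snhg1 at 0.19.

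Across the 12 libraries, which share animals in pairs, log2 CPM of Gas5 correlated with that of Snhg1 at r = 0.914 and with that of Snhg12 at 0.847, and Snhg1 with Snhg12 at 0.697. In the 6 pairs that join these hosts with Pvt1 or Trp53cor1, r ran from -0.338 (Snhg1 and Trp53cor1) to 0.22 (Snhg12 and Trp53cor1). Among 9980 genes of at least 5 CPM, Gas5 was most like Iqcb1 (r = 0.964), Spice1 (0.961) and the snoRNA host Snhg5 (0.956). Snhg1 was most like Ddx47, a helicase of ribosomal RNA processing (0.945), Snhg5 (0.932) and Spice1 (0.915). Snhg12 was most like Dph7 (0.977), the box C/D core protein gene Nop56 (0.969) and the host gene Dancr (0.96).

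Of the snoRNA rows inside these hosts, 0 of 6 passed after irradiation. Snora61 and Snord99 had 1722 and 1751 counts in all, Snora16a 1778, Snora44 659, Snord47 491 and Snord22 4191. The log2 fold change over both genotypes was -0.60 ± 0.44 for Snord47, from Gas5, and -0.19 ± 0.16 for Snord22, from Snhg1. For the snoRNAs of Snhg12 it was 0.00 ± 0.18 for Snora16a, -0.09 ± 0.22 for Snora44, -0.03 ± 0.21 for Snora61 and 0.04 ± 0.18 for Snord99 (edgeR adjusted p = 1 for all 6). Without irradiation the CM over WT log2 fold change was above 0 for all 6, at 0.26 ± 0.32 (Snora44) to 0.65 ± 0.29 (Snora61), and 0 of 6 passed (edgeR adjusted p 0.336 to 0.728). The 3 hosts were at 0.03 to 0.06, and 52.6% of all tested genes were above 0. The direction was not particular to these snoRNAs. The 3 tested RNAs without a poly(A) tail listed apart from them were also all above 0, at 0.06 to 1.22 with a median of 0.73. Reads from a snoRNA and from unspliced host RNA over the same bases cannot be told apart in these counts.

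Of 18 other snoRNA host lncRNAs listed, 17 were tested and 0 passed in any comparison. The median log2 fold change over both genotypes was 0.03, beside -0.00243 for all tested genes. The smallest p among them were those of Snhg11 (0.47 ± 0.17, edgeR adjusted p = 0.691) and Snhg15 (0.39 ± 0.19, edgeR adjusted p = 1). Both were higher in the IR library of all 6 animals, as were 5.93% of tested genes. Snhg11 was low, at means of 0.877 CPM in CM IR, 0.691 CPM in CM NIR, 0.512 CPM in WT IR and 0.338 CPM in WT NIR. Snhg15 averaged 18.2 ± 7.19 CPM in CM IR and 14.3 ± 3.26 CPM in CM NIR, and 20.8 ± 2.12 CPM in WT IR and 15.3 ± 2.83 CPM in WT NIR (SD, n = 3 each). Genes for proteins of snoRNA particles (13 tested of 14) had a median of 0.03 over both genotypes, with 0 called; Nop10, a box H/ACA core protein, was at 0.15 ± 0.20 and Fbl, the box C/D methyltransferase, at 0.10 ± 0.13 (edgeR adjusted p = 1 for both). Between genotypes without irradiation the median of the particle genes was -0.16, with 12 of 13 below 0 and 0 called, beside 0.02 for all tested genes, of which 52.6% were above 0. Of 14 nonsense-mediated decay factors 0 passed, the median over both genotypes was 0.00126, and Upf1, the central helicase, was at 0.11 ± 0.14 (edgeR adjusted p = 1).

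Gas5 and Snhg1 have close neighbours on the opposite strand. Zbtb37 lies 67 bp from Gas5 and had a log2 fold change over both genotypes of -0.05 ± 0.10. Slc3a2, which encodes an amino acid transporter chain, lies 118 bp from Snhg1 and was at -0.10 ± 0.10. Trnau1ap, 739 bp from Snhg12, was at 0.07 ± 0.10 (edgeR adjusted p = 1 for all 3). The spans do not overlap those of the hosts, and the sources do not say which strand setting was used for counting.

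Neat1 differed more between animals than between any groups. It is a single-exon gene in the tables, at chr19:5824710-5845480 (mm10, minus strand, 20771 bases), 22038 bp from Malat1. In CM it had 620.1, 173.4 and 356.3 CPM in IR libraries of animals 1, 2 and 3, against 588.0, 209.6 and 533.7 CPM in NIR libraries. Among WT animals it had 297.5, 174.3 and 227.3 CPM in IR libraries, against 398.1, 266.7 and 209.6 CPM in NIR libraries. Both libraries of CM animal 1 and the non-irradiated one of CM animal 3 stood above every WT library, while CM animal 2 was as low as the lowest of WT.

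The log2 fold change of Neat1, IR over NIR over both genotypes, was -0.27 ± 0.34 with a 95% interval of -1.02 to 0.48 (edgeR adjusted p = 1). This fit has no animal term, so its SE also holds the spread between animals. With the animal as a block the value was -0.28 ± 0.12 (edgeR adjusted p = 0.279). The IR library was the lower in 4 of 6 animals. CM over WT was 0.72 ± 0.48 after irradiation (edgeR adjusted p = 0.635) and 0.61 ± 0.48 without it (edgeR adjusted p = 0.586). When libraries were left out singly these 2 values ran from 0.18 (without CM IR animal 1) to 1.07 (without CM IR animal 2), and from 0.35 (without CM NIR animal 1) to 0.94 (without CM NIR animal 2). Without both libraries of CM animal 3 the value over both genotypes was -0.16 ± 0.42, and in CM it was -0.00090 ± 0.65, against -0.21 with that animal. After irradiation 0 of 7 lncRNA genes passed in the genotype comparison, where 0.664% of tested genes passed, and without it 0 of 7, where 1.62% did.

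Some markers of mature blood cells were high in the same libraries as Neat1, and others were low there. Summed over 7 mast cell and basophil markers, all detected in every library, the level was 1578, 360.7 and 1029 CPM in CM IR animals 1, 2 and 3 and 1381, 303.1 and 1823 CPM in CM NIR, against 280.3 to 494.0 CPM in WT IR and 251.3 to 693.1 CPM in WT NIR. Over 6 macrophage markers, all detected in every library, it was 2027, 503.9 and 1568 CPM in CM IR and 1831, 351.4 and 1653 CPM in CM NIR, against 822.0 to 1563 CPM in WT IR and 432.5 to 2121 CPM in WT NIR. Over 9 markers of mature neutrophils, of which 8 or 9 were detected in a library and Retnlg was at 0 in 2, it was 904.4, 223.1 and 770.5 CPM in CM IR and 839.2, 172.5 and 1668 CPM in CM NIR, against 198.0 to 383.1 CPM in WT IR and 232.3 to 466.9 CPM in WT NIR. In all 3 sums CM animal 2 was the lowest CM animal, as for Neat1, but the highest macrophage sum was that of WT NIR animal 1, with 398.1 CPM of Neat1. Within the macrophage sum Mrc1 ran from 249.4 to 1704 CPM over the libraries, and the next highest marker, Adgre1, from 31.7 to 191.6 CPM. The neutrophil sums in CM came from Mmp8 and Lcn2; the other 7 markers, S100a8 and Ngp among them, summed to 10.8 to 89.7 CPM in CM IR and 8.02 to 16.5 CPM in CM NIR, against 114.6 to 232.3 CPM in WT IR and 111.4 to 314.7 CPM in WT NIR. Summed over 6 megakaryocyte and platelet markers, the level was 469.1, 260.3 and 283.7 CPM in CM IR and 427.5, 202.2 and 499.2 CPM in CM NIR. The WT sums of these markers were 120.0 to 191.4 CPM in IR and 102.3 to 285.6 CPM in NIR. Eosinophil markers ran from 8.99 to 38.8 CPM in CM and from 87 to 182.1 CPM in WT. Those of T and NK cells were at 9.88 to 21.9 CPM in CM animals 1 and 3 and 30.5 to 41.5 CPM in CM animal 2, against 32.2 to 45.6 CPM in WT. The part of these markers in the Neat1 differences was not tested, and in bulk RNA more cells of a type and more RNA per cell cannot be told apart.

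**Figure D5:**
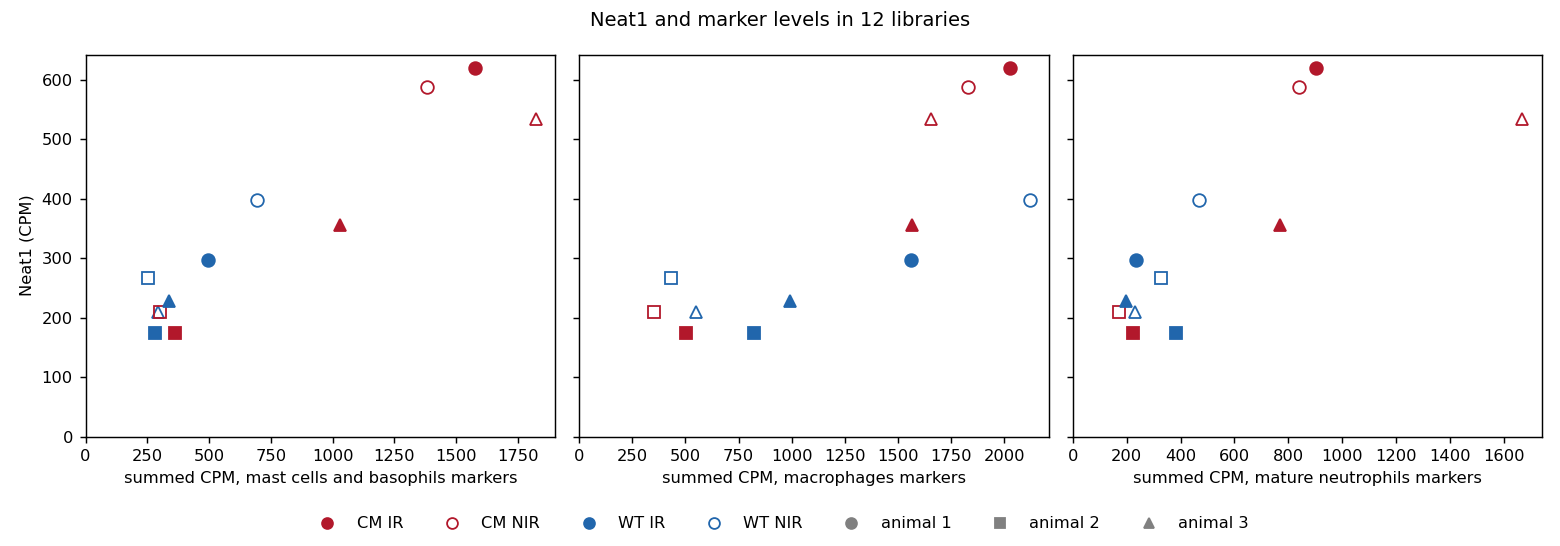
Neat1 level (CPM, y axis) against the summed CPM of mast cell and basophil, macrophage and mature neutrophil markers (x axes) in 12 libraries; red points are CM, blue points WT, filled points IR and open points NIR. The CM libraries with 533.7 to 620.1 CPM of Neat1 have 1381 to 1823 CPM of mast cell and basophil markers, while CM animal 2 sits at or below 360.7 CPM with 173.4 and 209.6 CPM of Neat1.

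Genes most like Neat1 over the 12 libraries were Rras, a small GTPase gene (r = 0.98), Atf3, a stress-induced transcription factor gene (0.977), and Dnajc5, a co-chaperone gene (0.973). Neat1 correlated with Snhg12 at -0.801, with Trp53cor1 at -0.604 and with its neighbour Malat1 at -0.366. Of 15 paraspeckle protein genes, all tested, 0 passed in any comparison; over both genotypes 13 lay below 0 with a median of -0.04, where 49.1% of all tested genes lay above 0. Hnrnpa1 was at -0.24 ± 0.12 and Tardbp at -0.09 ± 0.06 (edgeR adjusted p = 1 for both). The core paraspeckle genes Nono and Sfpq had mean within-animal log2 responses of -0.05 ± 0.06 and -0.04 ± 0.17 in CM and of -0.09 ± 0.04 and -0.01 ± 0.09 in WT (SD, n = 3 each). Frmd8, 5494 bp from Neat1, was at 0.03 ± 0.08 (edgeR adjusted p = 1).

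Malat1 was lower in CM than in WT after irradiation without overlap of libraries, and passed in no comparison. It lies at chr19:5795690-5802672 (mm10, minus strand, 6983 bases, single exon). In CM it had 741.9, 652.2 and 769.1 CPM in IR libraries against 734.0, 561.6 and 546.1 CPM in NIR libraries. WT animals had 1074, 976.4 and 1237 CPM in IR libraries against 448.7, 1212 and 979.9 CPM in NIR libraries. The NIR library of WT animal 1 was the lowest of all 12.

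After irradiation Malat1 averaged 721.1 ± 61.2 CPM in CM and 1096 ± 131 CPM in WT (SD, n = 3 each), a log2 fold change of -0.60 ± 0.29 (edgeR adjusted p = 0.458). Malat1 and Trp53cor1 were 2 of 7 lncRNA genes whose CM IR libraries all lay below the WT IR libraries, and groups did not overlap in either direction in 17.6% of tested genes. Without irradiation it averaged 613.9 ± 104 CPM in CM and 880.4 ± 391 CPM in WT, a log2 fold change of -0.52 ± 0.29 (edgeR adjusted p = 0.440), and the libraries overlapped through WT animal 1. IR over NIR was 0.27 ± 0.20 over both genotypes with a 95% interval of -0.18 to 0.73 (edgeR adjusted p = 1); in CM it was 0.23, and 0.11 ± 0.39 without CM animal 3. The IR library was the higher in 5 of 6 animals, by 1.26 on the log2 scale in WT animal 1 and by 0.02 to 0.49 in the other 4. The NIR library of WT animal 1 also had the highest summed levels of erythroid markers, 116.4 CPM against 17.9 and 30.6 CPM in the other WT NIR libraries, and of macrophage markers, 2121 CPM against 432.5 and 550.0 CPM. Of the 10 erythroid markers, the globin genes Hba-a1, Hbb-bs and Hbb-bt were at 0 in all 12 libraries. The part of these cells in the Malat1 value was not tested.

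The 3′ end of Malat1 is cut by RNase P to free mascRNA, a small tRNA-like cytoplasmic RNA, just after a genomically encoded stretch rich in A that ends the stable nuclear transcript. The sequence below shows the cut: 40 bases of the Malat1 3′ end in lower case, then the 58 bases of mascRNA in capitals (mm10, chr19:5795924-5796021, minus strand, 5′ to 3′, GENCODE M21 coordinates). Its own row in the count table was at 0 counts in all 12 libraries. Reads over these bases are also inside the Malat1 span on the same strand, and how reads shared by both rows were counted is not given. The 0 therefore sets no limit on the level of mascRNA.
Mascrna: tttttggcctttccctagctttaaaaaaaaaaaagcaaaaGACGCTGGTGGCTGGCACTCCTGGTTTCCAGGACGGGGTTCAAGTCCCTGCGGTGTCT

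Genes most like Malat1 were Uhrf1bp1l (r = 0.928), the phosphatase gene Ptp4a1 (0.885) and the calcium channel gene Itpr1 (0.882), so its nearest patterns were looser than those of the other 6 tested genes. Of 16 nuclear speckle protein genes, all tested, 0 passed in any comparison. Over both genotypes 14 of the 16 lay below 0, with a median of -0.05, beside -0.00243 for all tested genes, of which 49.1% lay above 0. Pnisr was at -0.13 ± 0.05 (edgeR adjusted p = 0.866) and Srsf3 at -0.13 ± 0.06.

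Pvt1 and Trp53cor1 correlated with each other at r = 0.62 over the 12 libraries, 6 of them irradiated. Pvt1 was most like Ccdc122 and Acad8 (r = 0.933 each) and Mdm2, the ubiquitin ligase gene that p53 induces (0.932). Mdm2 responded by 0.21, 0.60 and 0.19 on the log2 scale in CM animals 1, 2 and 3 and by 0.63, 0.71 and 0.86 in WT animals 1, 2 and 3, with CM animal 2 again the nearest to WT. Trp53cor1 was most like Eda2r, a receptor gene that p53 induces (0.96), Zfp365 (0.958) and Kank3 (0.951). Eda2r averaged 8.06 ± 8.46 CPM in CM IR and 0.642 ± 0.337 CPM in CM NIR, and 24.9 ± 2.20 CPM in WT IR and 1.06 ± 0.273 CPM in WT NIR (SD, n = 3 each). It is 1 of the 10 p53 targets, and its log2 fold change over both genotypes, 4.10 ± 0.50 (edgeR adjusted p = 0.00914), was the highest of that list.

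Miat was near the detection limit in LSK cells. It lies at chr5:112213228-112228948 (mm10, minus strand, 8760 bases of exon). It had 3, 6 and 5 counts in CM IR libraries of animals 1, 2 and 3, against 6, 11 and 1 counts in CM NIR libraries. In WT it had 1, 2 and 3 counts in IR libraries, against 4, 5 and 3 counts in NIR libraries. The sums were 14 counts in CM IR and 18 in CM NIR, and 6 counts in WT IR and 12 in WT NIR, and with so few reads the gene was not tested. The neighbouring gene Mn1 lies 756198 bp away and Cryba4 17544 bp away, and neither passed in any comparison.

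Of 23 other lncRNAs listed, 22 were in the table and 18 were tested, with 0 called in any comparison and a median log2 fold change of -0.08 over both genotypes. Ftx, a lncRNA of the X-inactivation centre, had the smallest p at -0.27 ± 0.09 (edgeR adjusted p = 0.491), followed by the miRNA host Mir17hg at -0.17 ± 0.10 (edgeR adjusted p = 1). Both were lower in the IR library of all 6 animals, as were 6.58% of tested genes. The miRNA host Mir155hg was higher in the IR library of all 6 animals, as were 5.93% of tested genes, with a log2 fold change of 0.36 ± 0.26 (edgeR adjusted p = 1). Tug1 averaged 164.8 ± 18.1 CPM in CM IR and 170.2 ± 13.7 CPM in CM NIR, and 179.9 ± 11.46 CPM in WT IR and 180.5 ± 13.4 CPM in WT NIR (SD, n = 3 each). Of 8 RNAs listed that carry no poly(A) tail, 3 were tested and 0 passed; Terc, the telomerase RNA, was at 0.43 ± 0.27 and Rpph1, the RNase P RNA, at -0.41 ± 0.32 (edgeR adjusted p = 1 for both).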

How the data were processed

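RNA-seq of LSK cells was analysed from 2 deposited tables. RNA was isolated with an AllPrep kit, ribosomal RNA was removed and libraries were prepared with a stranded KAPA HyperPrep kit, per the labels' protocols. The submitters' processing notes name bcl2fastq (2.18.0.12), HTSeq (0.6.1p1), TopHat2 and the build mm10; their settings, the strand used in counting and the annotation release are not given there. The deposited counts, whole numbers per gene, were used for every test. The deposited RPKM values, scaled by the authors to exon length and library size, were used to compare levels between genes and in 1 alternative.

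The filter filterByExpr, with a minimum count of 10 and a minimum total of 15, kept 14599 of 25078 genes; 4353 had 0 counts throughout. A single model with a mean for each group and no animal term was fitted to the 12 libraries in edgeR 4.0.16 (R 4.3.3) with TMM and the quasi-likelihood test, with Benjamini-Hochberg adjustment over all tested genes and a threshold of 0.05. The common biological coefficient of variation was 0.29. Within-animal responses used log2 CPM with a prior count of 2. Alternatives were other scalings, no filter, DESeq2 1.42.0, limma 3.58.1 on log2(RPKM + 0.1), the animal as a block, the library series as a term, and leaving out libraries. The library series groups libraries by the numbers in their names, with WT animal 1 and CM animals 1 and 2 in A and the other animals in B. It is thus spread unevenly over the genotypes, and the labels do not name it as a batch.

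The labels give the IR and NIR library of an animal 1 animal number, and their deviations from the group means correlated at 0.79, 0.844 and 0.125 in CM animals 1, 2 and 3 and at 0.672, 0.504 and 0.412 in WT animals 1, 2 and 3, so the replicate block is the animal. No library was a repeat of another within sampling noise: the lowest chi-square over its degrees of freedom for any pair was 14.7.

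The members, gene lists and naming rules were chosen with earlier results of these data known. Named from a list were up to 4 genes past the threshold, otherwise the 2 with the smallest p over both genotypes, except that some such genes are not reported here; the values of Tug1, Nono, Sfpq, Eda2r, Mdm2 and Mir155hg and the snoRNA rows were added after their values were seen. The genes most like a member are the 3 with the highest Pearson r of log2 CPM over 12 libraries, given without a p. The listed symbols Nhp2l1, Mir142hg, Rn7sk, Rn7s1, Rn7s2 and Ighm matched no row.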

Additional observations from a re-analysis of the deposited data

Results flagged for a closer look

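Snora61, a box H/ACA snoRNA inside Snhg12, had responses of opposite sign in the genotypes. Its IR library was lower in 3 of 3 CM animals (mean log2 response -0.22 ± 0.05, SD) and higher in 3 of 3 WT animals (0.14 ± 0.09). Of the 14599 tested genes 0.445% held this pattern, and 0.925% held it in this or the reverse direction. By edgeR's quasi-likelihood test the difference of the responses, CM minus WT, was -0.3643 ± 0.41 on the log2 scale with an adjusted p of 1, so the difference did not pass. That fit has no animal term, so its SE also holds the spread between animals. With the animal as a block 0 of 14599 genes passed in this comparison. The libraries held 112 to 231 counts of Snora61 in CM and 97 to 166 counts in WT.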

How the results depend on the processing

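The log2 fold changes of Pvt1 and Trp53cor1 for IR over NIR over both genotypes stayed above 0 in all 22 alternatives (0.87 to 1.15 and 1.33 to 1.70), but passed in 8 and 10 of them. Of the 7 lncRNA genes, 2 passed over both genotypes as reported, 1 with RLE size factors (Pvt1 adjusted p 0.0533), 0 with total counts alone (0.0509 and 0.0606), 0 without CM animal 3, and 0 to 1 when libraries were left out singly. In WT, 0 passed as reported, 2 with DESeq2, 1 with limma on RPKM, 2 with either replicate block (edgeR, or limma-voom with the animal as a random effect), 2 with the block without CM animal 3, and 0 to 1 with a library left out. In CM, 0 passed, and 1 with DESeq2 (Trp53cor1, adjusted p 0.0283). In the genotype comparisons and the difference of responses 0 of the 7 passed in any alternative run. Over all genes, 17 passed for IR in WT: 140 with DESeq2, 40 with limma, 163 and 438 with the edgeR and random-effect blocks, 1 without CM animal 3, 516 with the block as well, and 1 to 49 with a library left out. For IR in CM, 1 passed: 18 with DESeq2, 0 and 4 with the blocks, 0 without CM animal 3 with or without the block, and 0 to 3 with a library left out. For IR over both, 45 passed: 169 with DESeq2, 302 and 693 with the blocks, 9 without CM animal 3, 490 with the block as well, and 8 to 50 with a library left out. For CM over WT without irradiation, 237 passed: 922 with DESeq2, 5 with the random-effect block, 147 without CM animal 3, and 4 to 914 with a library left out. For CM over WT after irradiation, 97 passed: 652 with DESeq2, 13 with the random-effect block, 14 with the library series as a term, 204 without CM animal 3, and 3 to 270 with a library left out. The cause of these shifts was not tested. The block without CM animal 3 was chosen after seeing the data. Miat, with 1 to 11 counts a library, is limited by depth. Of the 7 tested genes the abundant Neat1 had the largest SE over both genotypes (0.34) in the fit without an animal term. With the animal as a block its SE was 0.12, below those of Malat1 (0.19), Pvt1 (0.17) and Trp53cor1 (0.16).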
